A study of Mus musculus with 16 samples.

Results

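Pax3, Pax6, Pax7, Irx3, Irx5, Dbx1 and Dbx2 encode homeodomain transcription factors of the dorsal and intermediate neural tube. These 7 genes were taken by name from a table of 35976 genes and read in all 16 libraries of cells from mouse neural tube organoids on day 4 of culture. All 7 were among the 13891 genes that passed the expression filter and were tested, Dbx1 through libraries of the negative and low gates alone. The organoids were grown from R1, a mouse embryonic stem cell line, with the genotype FOXA2-Venus, a reporter of the transcription factor FOXA2, and all of them received retinoic acid (RA) for 18 hours. The cells fell into 4 groups by FOXA2 expression, called here the negative, low, medium and high gates (how the cells were separated is not stated in the labels), with 4 libraries each, and no group without RA or without the reporter was analysed here. The assay was BRB-seq, a bulk method that barcodes samples early and counts mostly the 3′ ends of transcripts. Only 1 cell line was used, and nothing in the labels says that libraries of a gate came from separate cultures, so the p-values measure the spread between libraries, which may be technical.

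Along the back-to-belly axis of the neural tube, Sonic hedgehog from the ventral midline and BMP and Wnt proteins from the roof set up bands of progenitor cells, each marked by its own combination of homeodomain factors. FOXA2 marks the ventral midline itself, the floor plate. Pax3 and Pax7 belong to the dorsal progenitors, Pax6 and Irx3 cover a wide territory that spares the most ventral cells, and Dbx1 and Dbx2 mark a narrow band in the middle of the axis. In the chick and mouse spinal cord, Pax7, Dbx1, Dbx2, Irx3 and Pax6 are classed as genes that Sonic hedgehog signalling represses.

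Foxa2, which set the gates, averaged 2.91 ± 1.68 CPM in negative libraries, 11.9 ± 3.02 in low, 52.0 ± 9.36 in medium and 113 ± 18.2 in high libraries (SD, n = 4 each, as for every mean below), where CPM is a count scaled by the TMM library size. Library totals ran from 3268948 to 9961032 counts, so a single count was worth between 0.102 and 0.304 CPM. The low 1 and medium 2 libraries lay apart from the rest of their gates on the third principal component, at 29.6 and 36.5. Among pan-neural genes, Sox1 and Sox2 were listed at 0 in all 16 libraries, while Nes, Hes5 and Cdh2 were detected in every gate. The annotation behind the counts is not known, so a gene at 0 in all libraries may be one that was not counted, and no absence is read from such a 0.

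The 7 genes lie on 6 chromosomes of the GRCm38 build (GENCODE M21 annotation). Pax3 is at chr1:78101267-78197134 on the minus strand, Pax6 at chr2:105668900-105697364 on the plus strand, Pax7 at chr4:139737062-139833528 on the minus strand, Dbx1 at chr7:49631499-49636849 on the minus strand and Dbx2 at chr15:95623563-95655960 on the minus strand. Irx3, at chr8:91798525-91802067 on the minus strand, and Irx5, at chr8:92357625-92376286 on the plus strand, are neighbours of the IrxB cluster with 555.6 kb between them. RefSeq promoters (GRCm38.p6, each from 250 bases before to 50 after a transcript start) were found for 5 of the 7 genes, in 6 windows. The parts before the start are printed for 3 of them, because Pax6 and Dbx1 fell together along the gates while Dbx2, a paralogue of Dbx1, did not. They are chr2:105668646-105668895 (plus strand) for Pax6, chr7:49636836-49637085 (minus strand) for Dbx1 and chr15:95654772-95655021 (minus strand) for Dbx2, written 5′ to 3′ along each gene. Pax6 has another window, with its part before the start at chr2:105682213-105682462 (plus strand). That window is not printed and holds none of the letters marked below. Capitals mark ACAAT or its reverse complement ATTGT (a core of SOX sites), CCAAT and TATAAA.
Pax6 promoter: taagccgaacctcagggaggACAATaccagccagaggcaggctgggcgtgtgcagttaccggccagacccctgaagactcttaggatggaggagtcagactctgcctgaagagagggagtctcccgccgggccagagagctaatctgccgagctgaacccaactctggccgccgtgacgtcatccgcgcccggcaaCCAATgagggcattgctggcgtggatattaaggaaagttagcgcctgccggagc
Dbx1 promoter: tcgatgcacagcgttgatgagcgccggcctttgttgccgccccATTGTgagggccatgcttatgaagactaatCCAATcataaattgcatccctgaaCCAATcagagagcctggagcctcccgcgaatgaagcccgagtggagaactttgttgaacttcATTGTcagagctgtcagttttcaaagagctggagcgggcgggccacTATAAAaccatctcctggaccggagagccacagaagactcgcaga
Dbx2 promoter: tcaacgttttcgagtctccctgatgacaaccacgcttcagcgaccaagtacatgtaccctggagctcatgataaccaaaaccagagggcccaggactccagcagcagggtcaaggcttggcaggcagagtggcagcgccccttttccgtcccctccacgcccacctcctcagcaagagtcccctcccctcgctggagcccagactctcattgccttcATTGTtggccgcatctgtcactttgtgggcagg
All letters were searched on both strands. ACAAT was in 3 of the 6 windows, against 31.0% of 32851 RefSeq promoters of the same length. CCAAT was in 2 of the 6 windows, against 37.4% of all promoters, and TATAAA in 1, against 13.6%. The capitalised matches do not overlap each other. The forkhead letters TGTTTAC, found in 3.65% of promoters, and the homeodomain letters TAATTA, found in 5.29%, were in 0 of the 6 windows.

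Most of these genes were at lower levels in the high gate. There, 6 of the 7 genes fell against the negative gate by edgeR's quasi-likelihood test (adjusted p under 0.05, as for every call below), where 8.55% of all tested genes were called lower. These were Pax3, Pax6, Pax7, Irx3, Irx5 and Dbx1, and the median log2 fold change of the 7 was -0.94, with a median of 0.00 over all tested genes. The number called lower was 3 to 6 when 1 library was left out (3 without negative 1, high 1, high 2 or high 3), and 3 in a fit of only these gates, where Dbx1 was not tested. The calls of Pax3, Pax6 and Dbx1 passed in each leave-one-out fit, while that of Pax7 was lost in 4 of 16 such fits, that of Irx5 in 7 and that of Irx3 in 13. Dbx1 met the expression filter in 3 negative and 2 low libraries and in 0 medium or high libraries. Its falls in the medium and high gates therefore carry no weight in this or any later count. For Pax3, Pax6 and Dbx1 every high library lay below every negative library, which held for 11.1% of tested genes. Bulk libraries cannot tell fewer cells of a type from less RNA per cell. The test of any difference among the 4 gates called 5 of the 7 genes, against 13.7% of tested genes. It did not call Irx5 (adjusted p = 0.0866) or Dbx2 (adjusted p = 0.196).

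**Figure D1:**
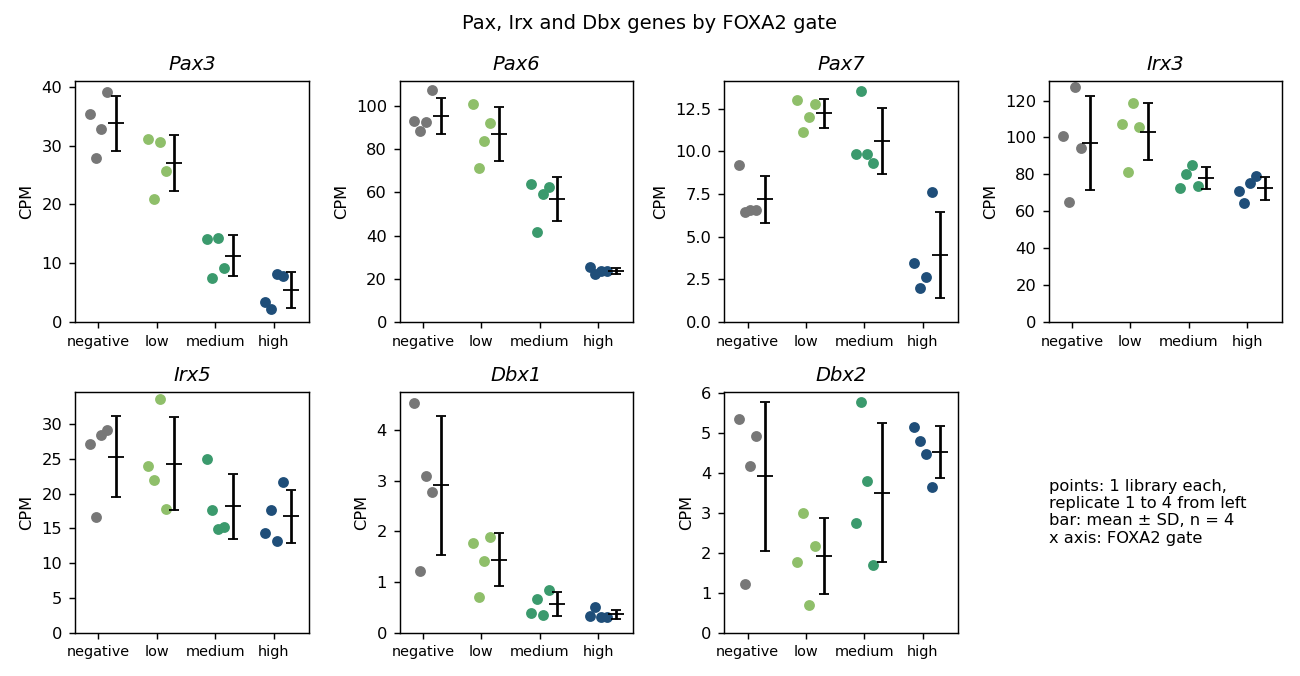
CPM of each of the 7 genes in the 16 libraries by FOXA2 gate, 1 point per library with the mean ± SD of 4 libraries beside them, each panel with its own linear axis from 0. Pax3, Pax6 and Dbx1 stepped down from the negative to the high gate, Pax7 had its highest means in the low and medium gates, and Dbx2 averaged 4.52 CPM in high and 3.92 in negative libraries.

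Pax3 (a paired-box factor of dorsal progenitors and neural crest) stepped down with FOXA2. It stood at 35.3, 28.0, 32.8 and 39.1 CPM in the negative libraries and at 31.0, 20.8, 30.6 and 25.7 in the low libraries. It stood at 14.2, 7.42, 14.3 and 9.20 CPM in the medium libraries and at 3.49, 2.28, 8.17 and 7.91 in the high libraries. Negative and low libraries overlapped, and all medium and high libraries lay below all of them. The high gate averaged 5.46 ± 3.02 CPM and the negative gate 33.8 ± 4.68, which is -2.62 on the log2 scale (SE 0.277, adjusted p = 2.00e-07). Pax3 was also lower in medium than in low libraries (log2 fold change -1.27, adjusted p = 0.0107). Between high and medium the log2 fold change was -1.03 (95% interval -1.61 to -0.45, adjusted p = 0.128), and the low gate did not differ from the negative gate beyond the spread (-0.32, 95% interval -0.77 to 0.13).

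Pax6 (a paired-box factor of most neural tube progenitors outside the floor plate, also the eye's) stepped down as well, with closely grouped high libraries. Its negative libraries held 93.1, 88.2, 92.8 and 107 CPM and its low libraries 101, 71.4, 83.9 and 92.1. Its medium libraries held 63.8, 41.7, 59.3 and 62.7 CPM and its high libraries 25.3, 22.3, 23.6 and 23.7. All high libraries lay below every other library, and the medium libraries lay below every negative and low library. The mean was 23.7 ± 1.24 CPM in the high gate against 95.4 ± 8.27 in the negative gate (log2 fold change -2.01, SE 0.141, adjusted p = 6.77e-12). Pax6 also fell in high against medium libraries (-1.26, SE 0.142, adjusted p = 3.64e-06) and in medium against low libraries (-0.62, SE 0.131, adjusted p = 0.0145).

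Pax7 (the paralogue of Pax3, confined to dorsal progenitors in the spinal cord) did not follow a staircase. It stood at 9.23, 6.42, 6.55 and 6.55 CPM in the negative libraries and at 13.0, 11.1, 12.0 and 12.8 in the low libraries. It stood at 9.84, 13.5, 9.85 and 9.35 CPM in the medium libraries and at 3.49, 2.02, 2.62 and 7.61 in the high libraries. All low and all medium libraries lay above all negative libraries, and all of them lay above all high libraries. The low gate averaged 12.2 ± 0.860 CPM against 7.19 ± 1.36 in the negative gate, a log2 fold change of 0.77 (SE 0.255) that missed the threshold (adjusted p = 0.0981). It passed with DESeq2 (adjusted p = 0.0434), in a fit of only those gates (adjusted p = 0.0411) and without high 4 (adjusted p = 0.0420). Pax7 fell in the high gate against the medium gate (-1.50, SE 0.289, adjusted p = 0.00432), the low gate (-1.71, SE 0.285, adjusted p = 0.000131) and the negative gate (3.94 ± 2.52 CPM in high, 7.19 ± 1.36 in negative, -0.94, SE 0.294, adjusted p = 0.0255). The fall against the negative gate was lost without negative 1 (adjusted p = 0.0857), high 1 (0.0716), high 2 (0.0989) or high 3 (0.110), and high 4, at 7.61 CPM, lay within the negative range.

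Irx3 (an Iroquois factor that bounds the motor neuron territory on its dorsal side in the chick spinal cord) moved little. Its libraries held 101, 65.1, 127 and 94.5 CPM in the negative gate and 107, 81.4, 118 and 105 in the low gate. They held 72.8, 80.5, 85.2 and 73.5 CPM in the medium gate and 71.2, 64.2, 75.2 and 79.1 in the high gate. The wide negative range covered most of the others, while all high libraries lay below all low libraries. The mean was 72.4 ± 6.36 CPM in the high gate, against 103 ± 15.6 in low libraries (-0.51 on the log2 scale, SE 0.147, adjusted p = 0.0297) and 96.9 ± 25.6 in the negative gate (-0.42, SE 0.147, adjusted p = 0.0474). The call against the negative gate was lost in 13 of the 16 fits that left out 1 library (adjusted p up to 0.237) and held without negative 2 (0.00399), low 2 (0.0379) or low 3 (0.0489). The call against the low gate was lost without low 1, low 3, low 4, high 1, high 2 or high 3 (adjusted p from 0.0530 to 0.122).

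Irx5 (an Iroquois factor of the same cluster) had a similar small difference. It stood at 27.1, 16.7, 28.4 and 29.2 CPM in the negative libraries and at 23.9, 21.9, 33.6 and 17.8 in the low libraries. It stood at 25.0, 17.6, 14.9 and 15.2 CPM in the medium libraries and at 14.3, 17.7, 13.3 and 21.6 in the high libraries. Every pair of gates overlapped, and the gate means stepped down from negative to high. Irx5 averaged 16.7 ± 3.77 CPM in the high gate and 25.3 ± 5.84 in the negative gate (log2 fold change -0.63, SE 0.217, adjusted p = 0.0450). That call was lost without negative 1, negative 3, negative 4, low 2, high 1, high 2 or high 3 (adjusted p from 0.0505 to 0.148), and no other pair of gates differed by the test. Between high and medium the log2 fold change was -0.14 (95% interval -0.57 to 0.30).

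Dbx1 (the factor that marks the progenitors of V0 interneurons) was scarce and stepped down. It had 79 counts over the 4 negative libraries, 41 over the low, 14 over the medium and 7 over the high libraries. In CPM the negative libraries held 4.54, 1.22, 3.09 and 2.76, the low libraries 1.77, 0.706, 1.41 and 1.89, the medium libraries 0.394, 0.660, 0.346 and 0.850 and the high libraries 0.333, 0.506, 0.308 and 0.304. Each high library rested on 1 or 2 counts, and all of them lay below all negative and low libraries. The pooled level in the high gate was 0.122 times that in the negative gate, with a 95% interval of 0.0475 to 0.263 from counting error only. The fitted log2 fold change was -2.96 (SE 0.614, adjusted p = 0.000823) for high and -2.29 (SE 0.544, adjusted p = 0.00546) for medium, both against negative. Low and negative did not differ by the test (1.44 ± 0.532 CPM in low, 2.90 ± 1.36 in negative, log2 fold change -0.98, adjusted p = 0.342), nor did high and medium (-0.66, 95% interval -2.10 to 0.77).

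Dbx2 (a paralogue of Dbx1 with a slightly wider band that takes in the neighbouring progenitors) was the exception. It stood at 5.35, 1.22, 4.19 and 4.91 CPM in the negative libraries and at 1.77, 3.00, 0.706 and 2.18 in the low libraries. It stood at 2.76, 5.77, 3.80 and 1.70 CPM in the medium libraries and at 5.16, 4.81, 4.47 and 3.65 in the high libraries. The high libraries fell inside the negative range and above all low libraries. The high gate averaged 4.52 ± 0.643 CPM and the negative gate 3.92 ± 1.86 (log2 fold change 0.20, 95% interval -0.61 to 1.02, adjusted p = 0.809), so a fall as deep as that of Dbx1 lies outside the interval. No pair of gates was called for Dbx2. High against low had a log2 fold change of 1.26 (95% interval 0.39 to 2.13, adjusted p = 0.0887), from 91 counts in the high gate and 51 in the low gate, and 6.92% of tested genes had all 4 high libraries above all 4 low ones.

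The comparison of the other gates with the negative gate asked how early along FOXA2 the genes moved. In the medium gate, 3 of the 7 genes fell, Pax3, Pax6 and Dbx1, where 4.22% of tested genes were called lower. Dbx1 passed the filter through negative and low libraries alone, so only Pax3 and Pax6 carry weight in this count and in the overlaps below. Pax3 was at 11.3 ± 3.51 CPM in the medium gate against 33.8 ± 4.68 in the negative gate (log2 fold change -1.59, SE 0.249, adjusted p = 9.39e-05). Pax6 was at 56.9 ± 10.3 CPM in the medium gate against 95.4 ± 8.27 in the negative gate (-0.75, SE 0.131, adjusted p = 0.000203). All medium libraries lay below all negative libraries for the same 3 genes, as for 6.75% of tested genes, and above them for Pax7, as for 6.13%. In the low gate, edgeR called 0 of the 7 genes, where 3.76% of tested genes were called in either direction. Pax7, Dbx1 and Dbx2, or 3 genes, had an unadjusted p under 0.05, and DESeq2 called Pax7. All low libraries lay above all negative libraries for Pax7, as for 4.04% of tested genes.

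Between neighbouring gates, medium against low lowered Pax3 and Pax6, 2 of the 7 genes, where 0.223% of tested genes were called lower, and all medium libraries lay below all low libraries for both, as for 1.99% of tested genes. Without low 1 and medium 2, neither was called (Pax3 -1.05, adjusted p = 0.0966, and Pax6 -0.42, adjusted p = 0.162). The Pax6 call was also lost without low 1 (adjusted p = 0.0677) or low 4 (0.0548). High against medium lowered Pax6 and Pax7, 2 of the 7 genes, where 0.547% of tested genes were called lower, and all high libraries lay below all medium libraries for both, as for 2.44% of tested genes. Pax3 joined them without medium 2 (-1.19, adjusted p = 0.0341), without high 3 (-1.37, adjusted p = 0.0295) and with DESeq2 (-1.04, adjusted p = 0.0209). High against low lowered Pax3, Pax6, Pax7 and Irx3, 4 of the 7 genes, where 3.08% of tested genes were called lower, and Dbx1 passed without low 2 (-2.19, adjusted p = 0.0411). All high libraries lay below all low libraries for these 4 genes and Dbx1, as for 5.95% of tested genes. Gate means stepped down at every gate for Pax3, Pax6, Irx5 and Dbx1, as for 11.4% of tested genes. Dbx1 carries no weight in either set, because of how it passed the filter. None of the 7 was called higher in a middle gate than in both the negative and the high gate, which 0.158% of tested genes were.

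**Figure D2:**
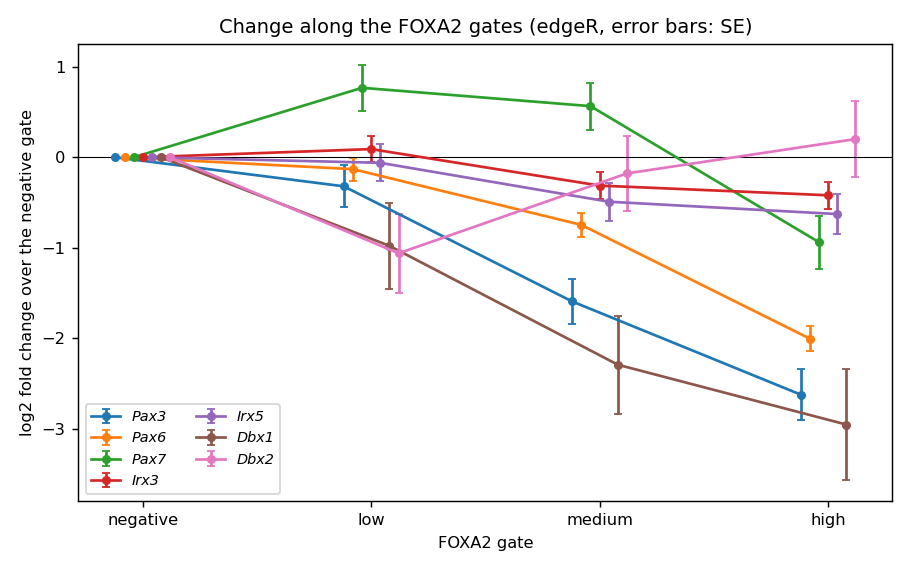
Fitted log2 fold change of each gene in the low, medium and high gates over the negative gate, which is 0 by construction; error bars are the SE of edgeR's fit to 16 libraries. In the high gate Dbx1, Pax3 and Pax6 lie between -2.96 and -2.01, Pax7, Irx5 and Irx3 between -0.94 and -0.42, and Dbx2 at 0.20.

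Ratios of counts between pairs of these genes within each library show whether they moved by unequal amounts, whatever the library's size. Only the change of a ratio between gates is read, since counts are not corrected for transcript length. The log2 ratio of Irx3 to Pax6 was 1.60 ± 0.115 in the high gate and -0.01 ± 0.385 in the negative gate, a difference of 1.62, and every high library exceeded every negative library. That of Dbx2 to Pax6 was -2.37 ± 0.203 in the high gate and -4.77 ± 0.893 in the negative gate, a difference of 2.39, again without overlap. That of Pax7 to Pax3 was -0.46 ± 0.773 in the high gate and -2.23 ± 0.275 in the negative gate, a difference of 1.77 without overlap. Each of these 3 had p = 0.0286 in an exact two-sided permutation test, the smallest that 4 against 4 libraries allow, and 0.0571 after Benjamini-Hochberg adjustment over the 6 ratios examined. The other 3 ratios overlapped between the gates. Pax3 to Pax6 differed by -0.78 between high and negative (exact permutation p = 0.143), Dbx1 to Pax6 by -0.55 (p = 0.286) and Irx5 to Irx3 by -0.20 (p = 0.314). In the Pax3 to Pax6 ratio the high libraries split, with high 3 and high 4 near the negative libraries and high 1 and high 2 below them.

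**Figure D3:**
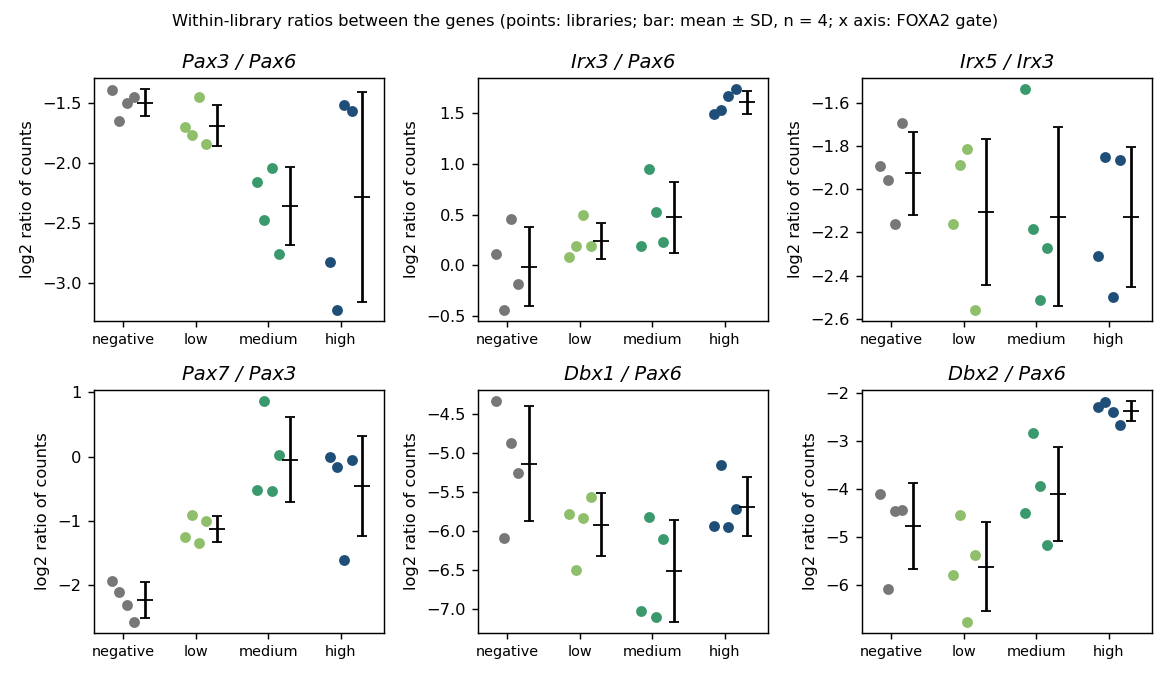
Within-library log2 ratios of counts (0.5 added to each count) for 6 pairs of the genes, 1 point per library with the mean ± SD of 4 libraries. Irx3 to Pax6 and Dbx2 to Pax6 lie higher in all 4 high libraries than in any other library, and Pax7 to Pax3 lies higher in the low, medium and high gates than in the negative gate.

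Other genes of the dorsal and intermediate tube mostly moved with Pax3 and Pax6. Of 27 listed genes 18 were tested, and in the high gate against the negative gate 12 fell, 1 rose and 5 were not called, with a median log2 fold change of -2.03. Among them were Msx2, Msx3, Neurog1, Wnt1, Wnt3a, Zic1, Zic2, Zic4, Prdm13 and Gbx2. Zic1, a zinc finger factor of dorsal progenitors, stood at 3.33, 4.30, 5.70 and 5.78 CPM in the high libraries against 24.9, 23.4, 16.4 and 25.3 in the negative libraries (log2 fold change -2.25, adjusted p = 5.66e-09). Msx3, a homeobox gene restricted to the dorsal tube, averaged 2.35 ± 1.20 CPM in the high gate and 14.6 ± 5.17 in the negative gate (-2.66, adjusted p = 2.24e-07).

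Lmx1b and Msx1, of the same list, differed in the other direction. Lmx1b, a LIM homeodomain factor of the roof plate and dorsal interneurons that the ventral midbrain also expresses, rose to 13.4 ± 5.16 CPM in the high gate against 5.10 ± 0.898 in the negative gate (log2 fold change 1.40, adjusted p = 0.000271), where 8.42% of tested genes were called higher. Msx1, a BMP target of the roof plate and dorsal midline, was called higher in low libraries (113 ± 15.6 CPM) and in medium libraries (112 ± 15.9) than in negative libraries (62.0 ± 10.9), with log2 fold changes of 0.87 (adjusted p = 0.000359) and 0.85 (adjusted p = 0.000204). In the high gate it was at 82.7 ± 16.0 CPM (0.42 against negative, adjusted p = 0.0505), a value that passed in a fit of only these gates (adjusted p = 0.0497), with no filter on low counts (0.0147), without low 1 and medium 2 (0.0443) and without negative 3, low 1, low 2, medium 2 or high 2 (0.00991 to 0.0481). In the low gate 1 of the 18 fell, Neurog1, besides the rise of Msx1.

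**Figure D4:**
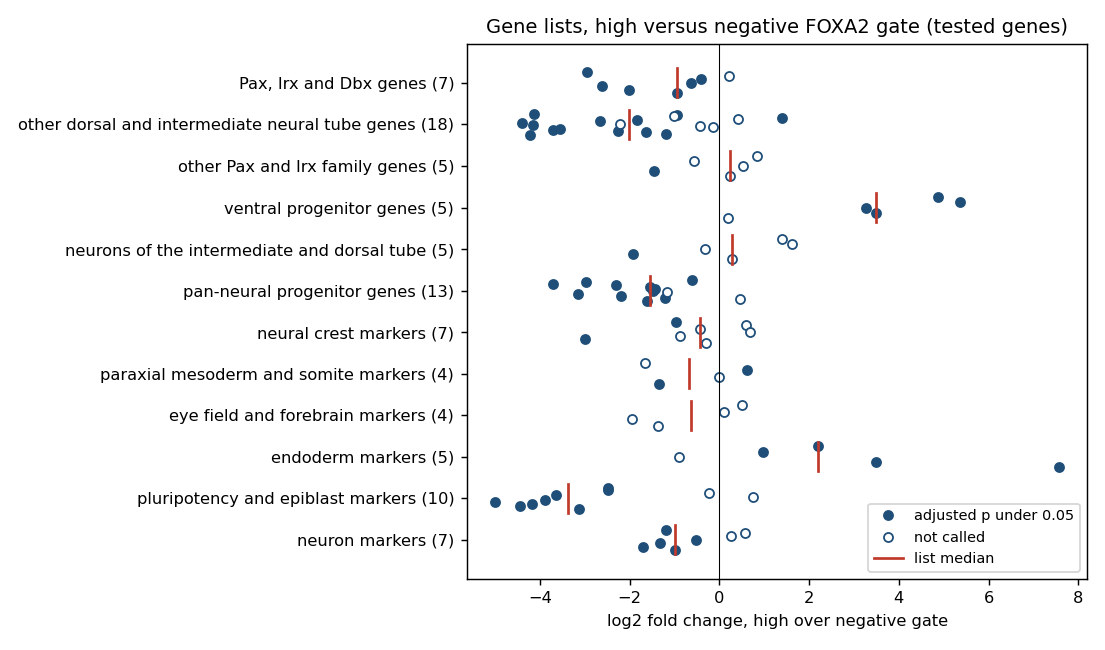
Log2 fold change of every tested gene of 12 lists in the high gate over the negative gate, 1 point per gene, filled where edgeR called it; red bars are list medians and the number tested stands in brackets. The 7 Pax, Irx and Dbx genes and the other dorsal and intermediate genes lie mostly below 0 and the ventral progenitor genes mostly above it.

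The rest of the Pax and Irx families gave few calls. Of 10 further genes (Pax1, Pax2, Pax4, Pax5, Pax8, Pax9, Irx1, Irx2, Irx4 and Irx6) 5 were tested, and 1 fell in the high gate against the negative gate, with a median log2 fold change of 0.23. That was Pax2, a factor of the midbrain-hindbrain boundary and of inhibitory interneurons, at 1.01 ± 0.774 CPM in the high gate and 3.00 ± 0.505 in the negative gate (-1.47, adjusted p = 0.0219), a call lost without negative 4, high 2, high 3 or high 4 (adjusted p up to 0.0791). Pax9, a gene of the sclerotome and of pharyngeal endoderm, peaked in the middle. It stood at 3.40, 5.56, 3.64 and 2.46 CPM in the negative libraries, 8.74, 13.8, 8.33 and 8.56 in the low libraries, 10.0, 10.7, 6.74 and 8.35 in the medium libraries and 4.99, 5.82, 3.85 and 2.43 in the high libraries. Low libraries exceeded negative libraries by 1.40 on the log2 scale (adjusted p = 0.00246), high against low was -1.18 (adjusted p = 0.00963), and all low libraries lay above all negative and all high libraries. Irx2, the partner of Irx1 and Irx4 in the IrxA cluster, was lower in high than in low libraries (8.10 ± 2.37 CPM in high, 15.4 ± 4.00 in low, -0.92, adjusted p = 0.00961), a call lost without high 2 (adjusted p = 0.0531). Pax4 was listed at 0 in every library.

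Some ventral progenitor genes went up where the dorsal and intermediate genes went down. Of 10 listed genes 5 were tested and 4 rose in the high gate against the negative gate, Foxa2, Foxa1, Nkx2-9 and Nkx6-1. Of all tested genes, 8.42% were called higher. Foxa2 rose by the design of the gates, and Foxa1 passed the filter through low, medium and high libraries alone. Neither carries weight in the count. Nkx2-9 stood at 168 ± 38.8 CPM in the high gate and 17.6 ± 3.97 in the negative gate. Nkx6-1, a homeodomain factor of ventral progenitors, stood at 15.4 ± 8.98 CPM in the high gate and 1.36 ± 0.839 in the negative gate (log2 fold change 3.50, adjusted p = 1.14e-05). Nkx6-2, whose domain overlaps that of Dbx2 in the mouse, was at 6.37 ± 3.06 CPM in the high gate and 5.48 ± 1.83 in the negative gate (0.19, adjusted p = 0.755). Olig2, the factor of motor neuron progenitors, was listed at 0 in every library. Evx1 and Evx2, which mark the V0 neurons that arise from the Dbx1 band, were listed at 0 in all 16 libraries. Of 14 listed genes of intermediate and dorsal neurons 5 were tested, with a median log2 fold change of 0.29 in the high gate. Lhx5 fell (-1.92, adjusted p = 0.0481), a call lost in 11 of the 16 fits that left out 1 library (adjusted p up to 0.169). It passed the filter through negative and low libraries alone, so its fall carries no weight. The other 4 were not called. Means in high and negative libraries were 2.47 and 0.803 CPM for Isl1, 3.92 and 1.48 for Foxp2, 2.91 and 2.46 for Pou4f1 and 1.75 and 2.23 for Lhx1.

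The falls came with lower levels of pan-neural genes. Of 15 listed genes 13 were tested, and in the high gate 11 fell and 2 were not called, with a median log2 fold change of -1.56. Of all tested genes, 8.55% were called lower there. Pou3f3 passed the filter through negative and low libraries alone and carries no weight in the count. Their summed level was 162 to 220 CPM in the high libraries against 454 to 512 in the negative libraries. Sox21, not called, went the other way (12.6 ± 1.66 CPM in high, 9.24 ± 0.919 in negative). General neuron markers also differed, with 5 of 7 tested lower in the high gate, against the same 8.55% (96.8 to 120 CPM summed in high, 199 to 285 in negative). The uncalled Elavl4 (7.70 ± 2.73 CPM in high, 5.09 ± 1.85 in negative) and Map2 (5.30 ± 0.863 in high, 4.44 ± 0.898 in negative) had higher means in the high gate. Pluripotency and epiblast markers set the negative gate apart from the rest, with a summed level of 608 to 1055 CPM in the negative libraries, 97.5 to 182 in the low, 62.9 to 86.6 in the medium and 56.6 to 90.0 in the high libraries. Endoderm markers rose in 4 of 5 tested, where 8.42% of all tested genes were called higher. Their sum was 457 to 475 CPM in the high libraries against 120 to 143 in the negative libraries. Most of the sum came from Sox17 (134 ± 14.5 CPM in high, 11.7 ± 3.02 in negative), Cldn6 (149 ± 8.61 in high, 32.3 ± 4.96 in negative) and Epcam (162 ± 8.26 in high, 83.4 ± 9.96 in negative). Ttr had 216 counts in high and 1 in negative libraries, and passed the filter through medium and high libraries alone, so its rise carries no weight in the count. Gata4, tested and not called, went the other way (2.13 ± 0.620 CPM in high, 3.97 ± 1.58 in negative). Of the untested endoderm markers, Gata6 had 44 counts in high and 4 in negative libraries, Afp 29 in high and 2 in negative, and Hnf4a 0 in high and 2 in negative. Their part in the differences of the 7 genes was not tested.

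Pax3, Pax6 and Pax7 are also genes of other cell types, and those were checked by their markers. Neural crest markers summed to 35.4 to 56.6 CPM in the high libraries and 78.0 to 99.6 in the negative libraries, with 2 of 7 tested lower in the high gate (Tfap2b and Ednrb). Most of the sum came from Ednrb (31.9 ± 7.50 CPM in high, 62.6 ± 17.6 in negative). The uncalled Snai2 (3.01 ± 2.00 CPM in high, 1.74 ± 0.931 in negative) and Ets1 (2.92 ± 2.61 in high, 1.83 ± 0.748 in negative) had higher means in the high gate. Sox10 had 1 count in the high gate and 3 in the negative gate. Markers of paraxial mesoderm and somites summed to 23.5 to 40.4 CPM in the high libraries and 28.4 to 43.9 in the negative libraries. There 1 of 4 tested was higher in the high gate (Meox1) and 1 lower (Tcf15). The sums were larger in the middle gates, at 49.5 to 60.3 CPM in low and 46.7 to 62.2 in medium libraries. Meox1 averaged 15.5 CPM in negative, 42.2 in low, 42.8 in medium and 23.4 in high libraries. Tcf15 went the other way, at 17.9 CPM in negative, 3.86 in low, 5.50 in medium and 7.01 in high libraries. Msgn1 and Myf5 were listed at 0 in all libraries. Eye field and forebrain markers summed to 4.62 to 11.6 CPM in the high libraries and 4.10 to 16.5 in the negative libraries, with 0 of 4 called by edgeR, 1 called by DESeq2 and 1, Otx2, at an unadjusted p under 0.05. The parts of neural crest and of paraxial mesoderm in the differences were not tested.

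Antisense genes overlap Pax6 and Irx3. Pax6os1 had 20 counts in the high gate and 76 in the negative gate, and Irx3os had 12 in the high gate and 27 in the negative gate. These are raw counts, and part of each difference is depth. Library totals ran from 3268948 to 6517958 in the high gate and from 5451076 to 9961032 in the negative gate. Neither covers the 3′ end of its partner, and no source used here gives the strand setting of the counting.

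Over the 16 libraries the genes were ranked by likeness to each of the 7, as Pearson's r of log2 CPM among 8182 other genes with a mean of at least 10 CPM. These values are descriptions, and all of them share the 4 gates and the same libraries. Nearest to Pax3 were Ccnd2 (cyclin D2, r = 0.960), Fgf15 (0.957) and Fez1 (0.944). Nearest to Pax6 were Folr1 (a folate receptor, r = 0.978) and the secreted Wnt modulators Sfrp2 (0.971) and Sfrp5 (0.968). Pax7 was nearest to Arrb1 (r = 0.860), Crabp1 (a retinoic acid binding protein, 0.859) and Fam84b (0.858). Irx3 was nearest to Ednrb (r = 0.849), Spata13 (0.814) and Metrn (0.798), and Irx5 to Slc39a14 (0.844), Acss2 (0.823) and Cnih2 (0.773). Dbx1 was nearest to Impa2 (r = 0.896), Hes3 (a Hes family repressor, 0.894) and Ptprn2 (0.893), and Dbx2 to Klf5 (0.814), Kif13b (0.756) and Ptgr1 (0.742). Among the 7 themselves, r was 0.921 between Pax3 and Pax6 and 0.678 between Irx3 and Irx5. Dbx2 had a negative r with each of the other 6, from -0.445 with Pax6 to -0.114 with Dbx1.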

How the data were processed

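The authors deposited 1 table of raw counts for 35976 genes in 16 libraries, which were matched to samples by column name. Per the submitters' processing notes, cutadapt 1.18, STARsolo 2.7.9a, DESeq2 1.42.0 and the build GRCm38 were used. No source used here gives the annotation, the strand setting or any collapsing by molecular identifier. The 7 genes, the gene lists and the comparisons were chosen with earlier results of these data known.

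The counts went into edgeR 4.0.16 (R 4.3.3). The expression filter kept 13891 genes, which held at least 99.7% of the counts of each library. Libraries were scaled by TMM, and a robust quasi-likelihood model of the 4 gates was fitted to all 16 libraries. The 6 pairwise differences and a joint test were adjusted by Benjamini-Hochberg over all tested genes within each comparison, at a threshold of 0.05, and all adjusted p-values of genes come from this test unless DESeq2 1.42.0 is named. SE is the size of the log2 fold change over the root of F, and 95% intervals are normal. The steps were tested on simulated counts. The 6 ratios used counts plus 0.5 and exact permutation tests.

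Totals of 3268948 to 9961032 counts set the precision. A count of 0 allows up to 3 counts, from counting error only. Chi-square per degree of freedom was at least 4.48 over 24 pairs of libraries within gates, so none was a duplicate. Correlations of same-numbered libraries exceeded 0.1 in 6 of 24 pairs, so numbers were not used as pairs. The genes named are the 7, the 3 most like each of them, antisense partners, and genes of the lists that were called or lay at a list's ends; Msx1, Irx2, Pax9 and genes at or near 0 counts, outside that rule, were named after their values were seen. Some genes of the lists are not reported here by name. The alternatives were a replicate block, RLE scaling, DESeq2, all genes unfiltered, libraries thinned to the smallest total, leaving out each library, only the gates compared in the fit and, for ratios, a pseudocount of 1. Fits without low 1 and medium 2, and without robust estimation, were added after seeing the data.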

Additional observations from a re-analysis of the deposited data

Results flagged for a closer look

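In 48 sets of 4 libraries (the 7 genes and the 5 tested further Pax and Irx genes, in 4 gates), 9 held a library farther from the rest of its gate than the limit for 4 values, where chance gives about 1 in 20. Pax7 was at 9.23 CPM in negative 1, against 6.42 to 6.55 in the other negative libraries, and at 13.5 in medium 2, against 9.35 to 9.85 in the other medium libraries. Irx5 was at 16.7 CPM in negative 2 and 27.1 to 29.2 in the others. Dbx1 was at 0.506 CPM in high 2, from 2 counts, and 0.304 to 0.333 in the others. Pax2 was at 2.16 CPM in high 1 and 0.506 to 0.771 in the others, and Pax9 at 13.8 in low 2 and 8.33 to 8.74 in the others. Irx1 was at 36.0 CPM in low 1 and 3.25 to 7.54 in the others, and at 16.3 in medium 2 and 5.31 to 6.09 in the others. Irx2 was at 4.55 CPM in high 2 and 9.09 to 9.44 in the others. Low 1 and medium 2 are the libraries that lay apart on the third principal component.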

How the results depend on the processing

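The falls of Pax3, Pax6 and Dbx1 in the high gate against the negative gate passed the threshold under every alternative in which the gene was tested; Dbx1 did not pass the filter in the fit of those gates alone or after thinning. The number of the 7 genes called lower there was 6, and 3 in the fit of only the high and negative gates, with a range of 3 to 6 when 1 library was left out. It was 4 without low 1 and medium 2, where Irx3 (adjusted p = 0.0624) and Irx5 (0.0526) were lost, and 4 without robust estimation, where the same genes were lost (Irx3 0.0574, Irx5 0.0512). For low against negative the number, all higher, was 1 with DESeq2 and 1 in the fit of only those gates, and 0 to 1 with 1 library left out. For medium against low it was 1 in the fit of only those gates, 0 without low 1 and medium 2, and 1 to 2 with 1 library left out. The other counts of the 7 genes stayed within 1.5 times of those reported, and the 6 ratios kept their direction. Thinning left 4 called lower and ended the Irx3 call of high against negative (adjusted p = 0.0760) and of high against low (0.0927). With 1 library left out, uncalled log2 fold changes changed sign for Dbx2 in high against negative (-0.087 to 0.37) and medium against negative (-0.53 to 0.060), Irx3 (-0.059 to 0.25) and Irx5 (-0.26 to 0.071, including 0.019) in low against negative, Irx5 in high against medium (-0.28 to 0.040) and Nkx6-2 in high against negative (-0.13 to 0.47). The cause was not tested. With the replicate block the number called lower in high against negative was 5, since Irx5 was lost (adjusted p = 0.0584), and Pax3 passed in high against medium (adjusted p = 0.0210); same-numbered libraries had r from -0.08 to 0.22, over 0.1 in 6 of 24 pairs against 3 of 72 pairs of other numbers, and 8 of 16 libraries were nearest, on average, to those of their own number. The block also brought Msx1 past the threshold in high against negative (adjusted p = 0.0110). Counts of 1 or 2 in each high library limit Dbx1, and all 7 genes rest on 4 libraries a gate.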
